A study of Mus musculus with 12 samples.

Results

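The genes described here are 10 transcripts used as marks of myeloid cells, followed through RNA-seq libraries of mouse splenic B cells. They were taken by symbol from the gene column of the count table, where 10 of 23282 rows carried them. S100a8, S100a9, Lcn2 and Ngp stand for neutrophils, and C1qa, C1qb, C1qc, Vcam1, Lyz2 and Csf1r stand for macrophages. The study asked how a CpG oligodeoxynucleotide (ODN), which stimulates the DNA sensor TLR9, and IM156, an inhibitor of oxidative phosphorylation, alter gene expression in splenic B cells, alone and together. Each of 4 groups had 3 libraries. The strain label of all 12 was wild-type C57BL/6, aged 7 weeks, although the series' own description speaks of lupus-prone mice. Control mice carry the treatment label None, with no vehicle named. ODN mice received 50 µg of the class B CpG-ODN 1826 intraperitoneally on days 1 and 3. IM156 mice received 30 mg/kg of IM156 intraperitoneally on days 0 and 2, ODN+IM156 mice received both agents on those days, and spleens were taken on day 4. The labels do not say how the B cells were isolated or whether the replicates of a group were separate animals, so the p-values below measure the spread between these libraries, which may be technical.

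S100A8 and S100A9 are small calcium-binding proteins that pair to form calprotectin, one of the most abundant cytosolic proteins of neutrophils. LCN2, which binds bacterial siderophores, and NGP, neutrophilic granule protein, are packed into granules as neutrophils mature in the bone marrow. C1QA, C1QB and C1QC are the chains of C1q, the recognition unit of the classical complement pathway, made largely by tissue macrophages. CSF1R is the receptor for the growth factor that macrophages depend on, VCAM1 is an adhesion molecule of splenic red pulp macrophages and of stromal and endothelial cells, and LYZ2 is the lysozyme of macrophages and neutrophils. In RNA from a whole cell preparation, fewer cells of a type and less RNA per cell cannot be told apart.

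In the libraries of ODN mice, S100a8 and S100a9 stood 5.45-fold and 8.41-fold above control, and C1qb and C1qc 3.06-fold and 2.89-fold. No member passed the test between IM156 and control. Under both agents, C1qb and C1qc were 4.26-fold and 3.93-fold above control, while S100a8 and S100a9 were 2.75-fold and 3.27-fold above it without passing the test. Against IM156 alone it was the reverse. There S100a8 and S100a9 were 5.30-fold and 4.65-fold higher under both agents and passed, and C1qb and C1qc, 2.25-fold and 1.88-fold higher, did not. The size of the S100 differences in ODN rested on ODN replicate 1. Only the S100 calls of ODN against control outlasted the removal of any 1 library. The other 4 tested members passed no comparison, and Lcn2 and Ngp had too few reads to be tested.

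The libraries held 9650775 to 11532525 counts each, and 11857 genes passed the filter on low counts. Levels are given in CPM, the counts-per-million scale, after trimmed-mean scaling of the library sizes; QuantSeq reads the 3′ end of a transcript, so they are not divided by length. Of 12 B-cell genes, 0 were called between ODN and control, and their summed level lay between 10807 and 12121 CPM in every library. ODN replicate 2 differed from the rest in its share of counts on the ribosomal RNA gene Rn45s, 1.46% against 4.78% to 9.63%. All members were minor transcripts, with at most 463 counts in a library. The neutrophil label was borne out only in part, and the S100 genes are therefore called by name below. The 6 primary granule genes of the table (Mpo, Elane, Prtn3, Ctsg, Ms4a3 and Bpi) held 39 counts over all 12 libraries together, and 7 further secondary granule genes (Ltf, Camp, Chil3, Cebpe, Mmp8, Fcnb and Cd177) held 107. Bpi, Ctsg and Fcnb were at 0 throughout. Granules are filled as neutrophils mature in the bone marrow, so few granule transcripts do not decide on mature neutrophils. Of genes of mature neutrophils, Cxcr2 had 76 counts and Csf3r 23 over all 12 libraries together. Ly6g had no row under that symbol in the count table. Counts over the control and the ODN libraries were 15 and 25 for Cxcr2, 3 and 6 for Csf3r, and 4 and 35 for Padi4. They were 3 and 16 for Clec4d, 5 and 6 for Il1r2, 1 and 8 for Stfa2l1, and 11 and 24 for Ifitm6. These genes had too few reads to be tested. Of 30 listed macrophage genes, 19 besides the members passed the filter, among them genes that many cells express, such as Apoe and Ctsb, and the marginal metallophilic macrophage marker Siglec1 had 2 counts in each of 2 libraries and none in the other 10.

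Several members sit side by side in the genome, given here in GRCm38 with GENCODE M21 gene models. S100a8 lies at chr3:90668978-90670035 on the plus strand and S100a9 at chr3:90692632-90695721 on the minus strand, 22596 bp apart. The C1q genes share one cluster on the minus strand, with C1qb at chr4:136880129-136886187, C1qc at chr4:136889804-136893065 and C1qa at chr4:136895917-136898803. The gaps between them are 3616 and 2851 bp. The remaining members are Lcn2 at chr2:32384633-32388252, Ngp at chr9:110419747-110423012, Vcam1 at chr3:116109949-116129688, Lyz2 at chr10:117277331-117282321, and Csf1r. No other annotated gene overlapped 8 of the 10. The antisense gene Gm43109 covers 1238 bp at the 5′ end of Vcam1. Hmgxb3 runs against Csf1r over 873 bp at the 3′ ends of both, where QuantSeq reads fall, and without a stated strand rule for the counting, reads there cannot be told apart. Reads of Lyz2 may likewise be shared with its near-identical neighbour Lyz1.

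C1qa, which lies beside C1qc in the same cluster, passed no test. The upstream windows of the 4 members that passed a test are printed. Each is the 250 bases before the transcription start in RefSeq (GRCm38.p6), 5′ to 3′ on the gene's strand, and 7 of the 10 members had an entry in that table. C1qa, Vcam1 and Csf1r had none. The RefSeq starts of S100a8, C1qb and C1qc differ from the ends of their GENCODE models. Capitals mark matches, on either strand, to GAGGAA, the core bound by the transcription factor PU.1, or to TTGCNNAA, the form bound by C/EBP factors. The windows are S100a8 at chr3:90668821-90669070, S100a9 at chr3:90695722-90695971, C1qb at chr4:136886201-136886450 and C1qc at chr4:136892915-136893164.
S100a8: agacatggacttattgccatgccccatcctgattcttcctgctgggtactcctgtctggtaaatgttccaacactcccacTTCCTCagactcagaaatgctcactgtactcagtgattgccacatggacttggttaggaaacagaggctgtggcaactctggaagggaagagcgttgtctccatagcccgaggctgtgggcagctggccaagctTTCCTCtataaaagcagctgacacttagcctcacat
S100a9: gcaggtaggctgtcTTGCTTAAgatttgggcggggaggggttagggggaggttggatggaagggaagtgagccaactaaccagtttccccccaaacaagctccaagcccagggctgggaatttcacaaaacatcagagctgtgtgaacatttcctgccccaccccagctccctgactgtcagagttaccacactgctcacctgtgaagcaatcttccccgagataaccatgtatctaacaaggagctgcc
C1qb: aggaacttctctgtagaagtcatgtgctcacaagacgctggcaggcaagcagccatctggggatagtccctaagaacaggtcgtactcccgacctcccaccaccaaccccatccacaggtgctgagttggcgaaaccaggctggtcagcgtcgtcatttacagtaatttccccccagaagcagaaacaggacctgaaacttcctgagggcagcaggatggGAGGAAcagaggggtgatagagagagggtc
C1qc: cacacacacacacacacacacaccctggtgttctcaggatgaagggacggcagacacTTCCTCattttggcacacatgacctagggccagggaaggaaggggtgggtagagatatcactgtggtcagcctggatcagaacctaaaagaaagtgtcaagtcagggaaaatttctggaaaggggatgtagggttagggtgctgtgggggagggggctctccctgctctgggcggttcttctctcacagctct
The S100a8 window held GAGGAA at 2 places, 170 and 36 bases before the start, and the C1qb and C1qc windows held it once each, 30 and 193 bases before. TTGCNNAA occurred in the S100a9 window alone among these 4, 236 bases before the start. Of 32851 RefSeq windows of this length, 23.3% held GAGGAA and 9.56% held TTGCNNAA. A match is a run of letters and not a measured binding site.

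S100a9, the larger subunit of calprotectin, had 3.78, 2.54 and 2.32 CPM in the 3 control libraries and 48.2, 11.9 and 12.9 CPM in the 3 ODN libraries. The IM156 libraries held 0.898, 2.43 and 2.64 CPM, and the ODN+IM156 libraries held 7.92, 8.88 and 11.4 CPM. All 6 libraries from mice given ODN lay above all 6 from mice not given it, and ODN replicate 1 stood far above every other library. The share of all tested genes that part the 6 and 6 libraries in this way was not computed. From lowest to highest, the group means were 1.99 ± 0.953 CPM for IM156, 2.88 ± 0.784 CPM for control, 9.41 ± 1.81 CPM for ODN+IM156 and 24.4 ± 20.7 CPM for ODN (SD, n = 3 each). No neighbouring pair in that order passed the test.

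S100a8, its partner, followed the same order of groups. Control libraries had 4.27, 3.72 and 2.42 CPM of S100a8, ODN libraries 36.3, 9.88 and 11.0 CPM, IM156 libraries 1.20, 1.12 and 2.99 CPM, and ODN+IM156 libraries 9.34, 8.14 and 11.2 CPM. The ODN libraries with the lower values, replicates 2 and 3, fell within the ODN+IM156 range, and replicate 1 was again the highest of the 12. The ratio of S100a9 to S100a8 counts was 0.683 to 0.960 in the control libraries and 1.17 to 1.33 after ODN, which did not overlap. It ran from 0.750 to 2.17 after IM156 and from 0.848 to 1.09 after both. The ratio rests on 9 to 463 counts of S100a9 a library and was not tested.

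Lcn2 was absent from the counts of all 3 control and all 3 IM156 libraries. It had 0, 3 and 7 counts in the ODN libraries and 2, 7 and 4 counts in the ODN+IM156 libraries, so it was detected in 5 of the 6 libraries from mice given ODN. Against a floor of 3 counts over a group's libraries, Lcn2 was at least 3.30-fold higher in ODN than in control and at least 4.34-fold higher in ODN+IM156 than in control. Counting error alone put the lower 95% bounds of these ratios at 2.22 and 3.05. ODN replicate 1, the library highest in S100a8 and S100a9, had no count of Lcn2 and none of Ngp. Ngp had 1, 2 and 5 counts in the control libraries, 0, 0 and 3 in those of ODN, 1, 0 and 0 in those of IM156, and 1, 1 and 0 under both agents. Its ratio of ODN to control was 0.372 with a 95% counting interval of 0.0635 to 1.55, and such intervals cover counting error only. With no filter on low counts, edgeR's quasi-likelihood test gave Lcn2 an adjusted p of 0.143 and Ngp one of 0.701 in ODN against control.

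**Figure D1:**
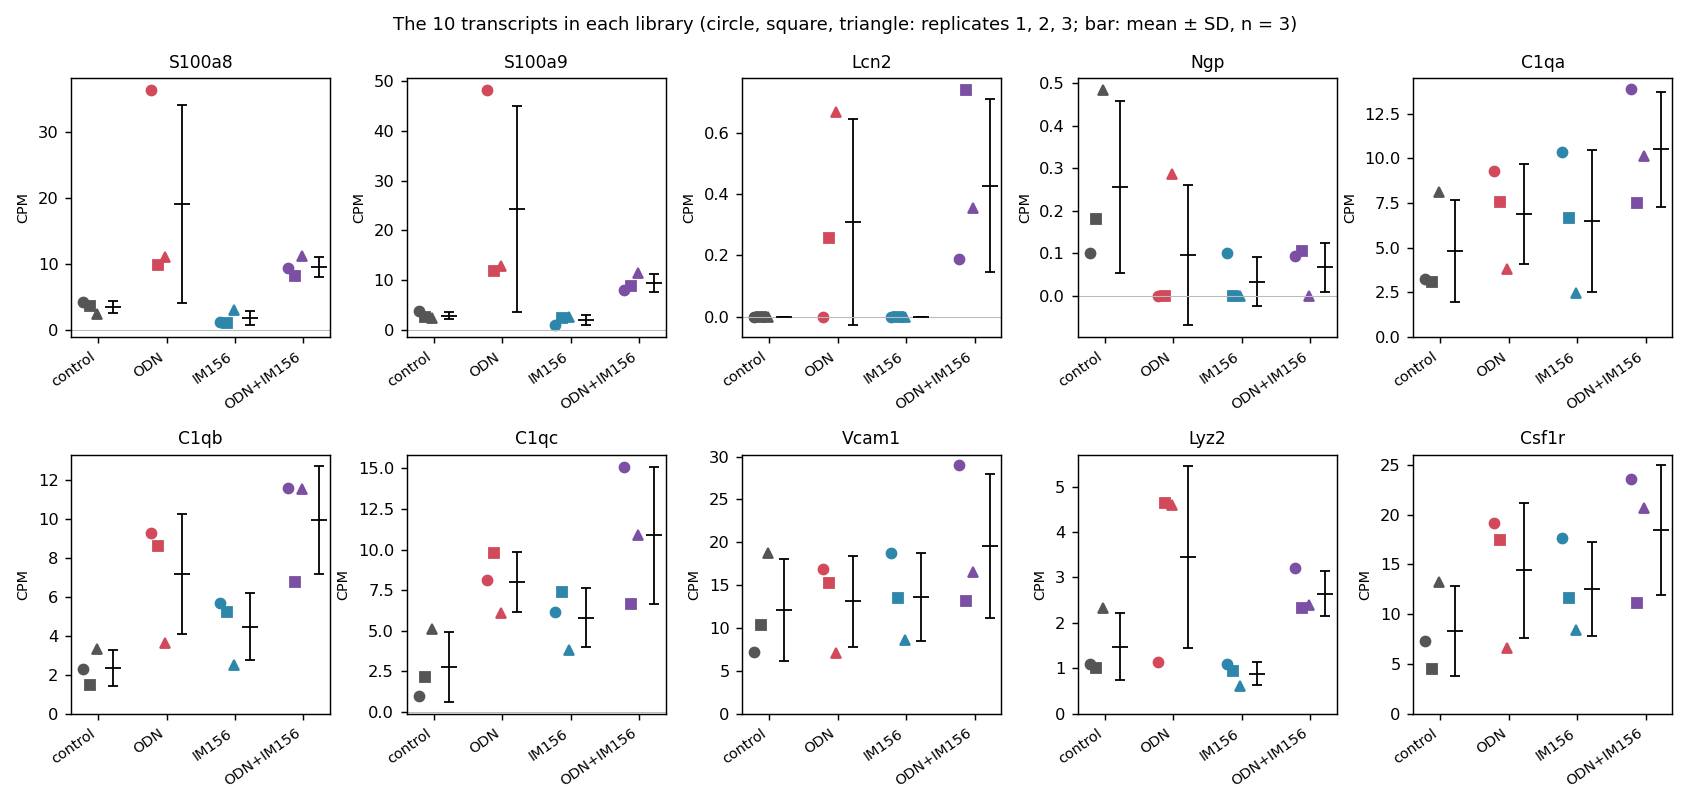
Level of each of the 10 members in CPM (y axis, linear and different in each panel) in the 12 libraries by group; circles, squares and triangles are replicates 1, 2 and 3, and bars are the mean ± SD of 3 libraries. S100a8 and S100a9 separate the groups given ODN from those not given it, with ODN replicate 1 at 36.3 and 48.2 CPM, while C1qa, Vcam1 and Csf1r overlap between control and each other group.

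C1qb, the B chain of C1q, had 2.29, 1.45 and 3.29 CPM in the control libraries. It had 9.27, 8.59 and 3.64 CPM after ODN, 5.68, 5.24 and 2.47 CPM after IM156, and 11.6, 6.76 and 11.5 CPM after both. The ODN libraries lay above the control libraries, although ODN replicate 3 cleared control replicate 3 by little. C1qc, the C chain, had 0.994, 2.18 and 5.13 CPM in the control libraries, 8.12, 9.79 and 6.12 CPM after ODN, 6.18, 7.39 and 3.84 CPM after IM156, and 15.1, 6.66 and 10.9 CPM after both. For both chains the group means rose in the order control, IM156, ODN and ODN+IM156. They were 2.34 ± 0.921, 4.46 ± 1.74, 7.16 ± 3.07 and 9.96 ± 2.77 CPM for C1qb, and 2.77 ± 2.13, 5.80 ± 1.80, 8.01 ± 1.84 and 10.9 ± 4.22 CPM for C1qc (SD, n = 3). IM156 against control and ODN+IM156 against ODN, which are neighbours in that order, did not pass the test for either chain; the middle pair, ODN and IM156, was not compared.

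C1qa, the A chain, had wide ranges within groups. Its levels were 3.28, 3.09 and 8.13 CPM in the control libraries, 9.27, 7.56 and 3.83 CPM after ODN, 10.4, 6.64 and 2.47 CPM after IM156, and 13.9, 7.50 and 10.1 CPM after both. Control overlapped every other group for this chain. The counts of C1qb per count of C1qa ran from 0.405 to 0.697 in the control libraries, from 0.95 to 1.14 after ODN, from 0.548 to 1 after IM156 and from 0.837 to 1.14 after both. The chains of C1q thus stood in another proportion in the 6 libraries given ODN than in the 3 controls, on 16 to 130 counts of C1qb a library; that proportion was not tested.

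Csf1r had 7.26, 4.45 and 13.3 CPM in the control libraries, 19.2, 17.4 and 6.60 CPM after ODN, 17.7, 11.6 and 8.36 CPM after IM156, and 23.6, 11.1 and 20.6 CPM after both. Vcam1 ranged from 7.16 to 18.7 CPM in the control libraries, from 7.08 to 16.9 CPM after ODN, from 8.53 to 18.7 CPM after IM156 and from 13.1 to 29.1 CPM after both. Control overlapped each other group for both genes. Lyz2 was low, with 1.09, 0.998 and 2.32 CPM in the control libraries, 1.15, 4.64 and 4.59 CPM after ODN, 1.10, 0.935 and 0.597 CPM after IM156, and 3.21, 2.33 and 2.39 CPM after both. Its pattern parted from the C1q genes in ODN replicate 1, which was highest for S100a8 and S100a9 and at control level for Lyz2.

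Within a group, the macrophage members moved together by library. Control replicate 3 was the highest control for 6 of 6 macrophage genes, and IM156 replicate 3 was the lowest of its group for 6 of 6. ODN+IM156 replicate 2 was the lowest of its group for 6 of 6, and ODN replicate 3 was the lowest for 5 of 6, with Lyz2 the exception. The 6 genes summed to 22.1, 22.5 and 50.8 CPM in the control libraries, 63.8, 63.3 and 31.9 CPM after ODN, 59.7, 45.2 and 26.3 CPM after IM156, and 96.4, 47.5 and 72.1 CPM after both. S100a8, S100a9, Lcn2 and Ngp together held between 5.23 and 8.15 CPM in the control libraries, between 22.1 and 84.6 CPM after ODN, between 2.19 and 5.63 CPM after IM156 and between 17.5 and 23.0 CPM after both. That sum, of which S100a8 and S100a9 are nearly all, was higher in the 6 libraries given ODN than in the other 6 without overlap. How many other genes part the libraries in this way was not counted. The macrophage sum of control replicate 3 exceeded those of ODN replicate 3 and ODN+IM156 replicate 2. Of the counts of all 10 genes, S100a8, S100a9, Lcn2 and Ngp made up 57.0% in ODN replicate 1 (95% exact binomial interval 54.4% to 59.6%) and 3.54% in IM156 replicate 1 (2.23% to 5.31%), the extremes of the 12.

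**Figure D2:**
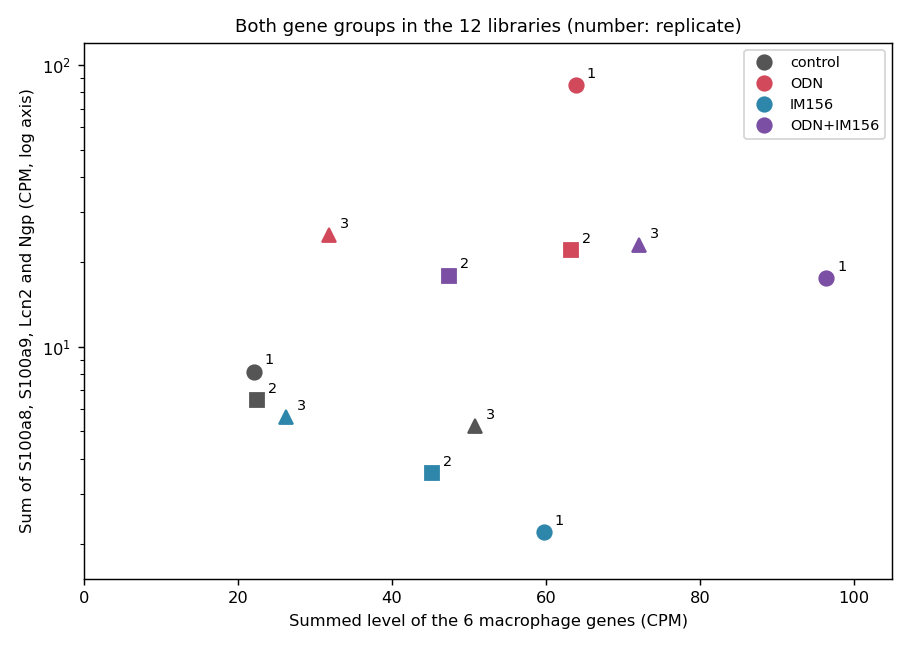
Summed level of S100a8, S100a9, Lcn2 and Ngp (y axis, CPM, log scale) against that of the 6 macrophage genes (x axis, CPM, linear scale), one point per library, coloured by group and numbered by replicate. The 6 libraries from mice given ODN lie at 17.5 CPM or more on the y axis and the other 6 at 8.15 CPM or less, whereas the groups overlap along the x axis.

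For ODN against control, the question was what ODN does alone. The members were chosen with earlier results of these data known, so their share of calls, here and in the comparisons below, is a description only. By edgeR's quasi-likelihood test at a Benjamini-Hochberg adjusted p under 0.05, 4 of the 8 tested members were higher and 0 lower, against a background of 7.34% of all tested genes called higher and 3.25% called lower. S100a9 rose by 3.07 on the log2 scale (SE 0.457, adjusted p = 0.000289) and S100a8 by 2.45 (SE 0.430, adjusted p = 0.00106). C1qb rose by 1.61 (SE 0.398, adjusted p = 0.0123) and C1qc by 1.53 (SE 0.419, adjusted p = 0.0234). For these 4 genes all 3 ODN libraries exceeded all 3 controls, as they did for 13.2% of all tested genes. Lyz2 differed by 1.24 (adjusted p = 0.126), Csf1r by 0.79 (0.212), C1qa by 0.51 (0.512) and Vcam1 by 0.12 (0.878), each on the log2 scale and without a call. The 95% interval for C1qa ran from -0.42 to 1.44 and that for Vcam1 from -0.64 to 0.88, so a change of the size seen for S100a9 lay outside both. The median difference was 2.76 over the 2 S100 genes and 1.02 over the 6 macrophage genes, beside 0.00 over all tested genes.

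The size of the S100 response rested on ODN replicate 1 and its call did not. Without that library the log2 fold change was 2.11 for S100a9 (edgeR adjusted p = 0.000218) and 1.58 for S100a8 (adjusted p = 0.00359), and both stayed called whichever of the 6 libraries was left out. C1qb lost its call without control replicate 2 (1.36, adjusted p = 0.0721). C1qc lost it without control replicate 1 (1.14, adjusted p = 0.0880), control replicate 2 (1.38, adjusted p = 0.0986) or ODN replicate 2 (1.36, adjusted p = 0.0819), and when edgeR was run on these 6 libraries alone (adjusted p = 0.0705), while without control replicate 3 its log2 fold change was 2.32. Lyz2 passed the test without ODN replicate 1 (1.64, adjusted p = 0.0287), and Csf1r passed it without ODN replicate 3 (1.13, adjusted p = 0.0310).

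For IM156 against control, 0 of 8 members and 0% of all tested genes were called by edgeR; 2 members and 3.7% of all tested genes had an unadjusted p under 0.05, and DESeq2 called 0 members. Those 2 members were C1qc, with a log2 difference of 1.06, and C1qb, with 0.92, both with an adjusted p of 0.999. S100a8 differed by -0.95 (95% interval -2.0 to 0.11) and S100a9 by -0.51 (-1.63 to 0.61), and for both genes the IM156 and control libraries overlapped. The intervals do not reach a rise of the size seen with ODN for either S100 gene. For C1qa (-0.52 to 1.35) and Csf1r (-0.23 to 1.41) the intervals include both a fall and a rise.

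Adding IM156 to ODN was examined as ODN+IM156 against ODN. By edgeR, 0 of 8 members and 0.0675% of all tested genes were called, 2 members (and 16.2% of all tested genes) had an unadjusted p under 0.05, and DESeq2 called 0 members. S100a9 stood 1.36 lower on the log2 scale in ODN+IM156 (SE 0.406, adjusted p = 0.0988), with all 3 libraries below all 3 of ODN, as for 10% of all tested genes. S100a8 differed by -0.99 (SE 0.392, adjusted p = 0.213), with overlapping libraries. These differences rested on ODN replicate 1: without it they were -0.40 for S100a9 (adjusted p = 0.622) and -0.12 for S100a8 (adjusted p = 0.914), while without ODN replicate 3 S100a9 passed the test (-1.66, adjusted p = 0.0129). With no filter on low counts both genes passed it, in a fit that called 664 genes in place of 8. The macrophage members differed by -0.40 for Lyz2 to 0.61 for C1qa, and all 6 overlapped between the groups.

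**Figure D3:**
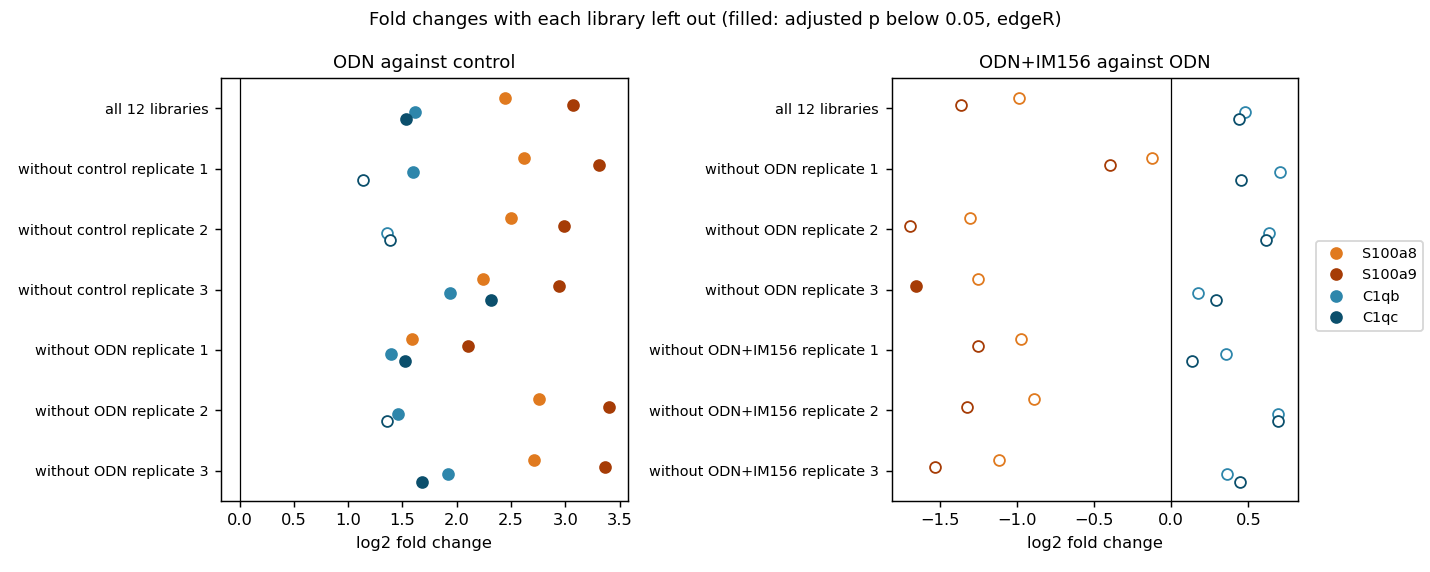
Log2 fold change (x axis) of S100a8, S100a9, C1qb and C1qc with all 12 libraries and with each library of the compared groups left out in turn (y axis); filled points have an edgeR adjusted p below 0.05. In ODN against control all points are above 0 and the S100 genes stay filled, and in ODN+IM156 against ODN the S100 genes move to -0.12 and -0.40 without ODN replicate 1.

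In ODN+IM156 against control, 2 of 8 members were higher and 0 lower, against 1.25% of all tested genes called higher and 0.337% lower. C1qb rose by 2.09 on the log2 scale (SE 0.394, edgeR adjusted p = 0.00611) and C1qc by 1.97 (SE 0.415, adjusted p = 0.0146). S100a9 differed by 1.71 (SE 0.465, adjusted p = 0.0754) and S100a8 by 1.46 (SE 0.435, adjusted p = 0.112). Csf1r differed by 1.16 (adjusted p = 0.176), C1qa by 1.12 (0.263), Lyz2 by 0.84 (0.534) and Vcam1 by 0.70 (0.429). S100a8, S100a9, C1qb, C1qc and Lyz2, 5 of the 8, were higher in all 3 ODN+IM156 libraries than in all 3 controls, as were 10.2% of all tested genes. Run on these 6 libraries alone, edgeR called 5 members (S100a8, S100a9, C1qb, C1qc and Csf1r) and 396 genes in all, where the fit of all 12 libraries called 188, with an adjusted p of 0.000686 for S100a9 and 0.00238 for S100a8. C1qb lost its call without control replicate 2 (adjusted p = 0.0675), and C1qc without control replicate 1, control replicate 2, ODN+IM156 replicate 1 or ODN+IM156 replicate 3 (adjusted p from 0.0605 to 0.117). Its log2 fold change ran from 1.58 without control replicate 1 to 2.76 without control replicate 3.

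In ODN+IM156 against IM156, which asks what ODN does in mice given IM156, 2 of 8 members were higher and 0 lower, against 1.74% of all tested genes called higher and 0.734% lower. These were S100a8, which rose by 2.41 on the log2 scale (SE 0.469, edgeR adjusted p = 0.00726), and S100a9, which rose by 2.22 (SE 0.485, adjusted p = 0.0169). S100a8, S100a9, C1qb and Lyz2 were higher in all 3 libraries than in all 3 of IM156, as were 12.8% of all tested genes. Lyz2 differed by 1.59 (adjusted p = 0.139), C1qb by 1.17 (0.108) and C1qc by 0.91 (0.269), and the other 3 macrophage genes by 0.54 to 0.71. Both S100 calls ended under edgeR's robust fit and without IM156 replicate 1 or 2, and that of S100a9 ended also without IM156 replicate 3 or ODN+IM156 replicate 3. The log2 fold changes over the removal of each library lay between 1.89 (S100a9 without IM156 replicate 1) and 3.03 (S100a8 without IM156 replicate 3).

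The comparison of ODN with control and that of ODN+IM156 with IM156 share no library, only the estimate of the spread. S100a8 differed by 2.45 in the one and 2.41 in the other, S100a9 by 3.07 and 2.22, C1qb by 1.61 and 1.17, C1qc by 1.53 and 0.91, and Lyz2 by 1.24 and 1.59. All 8 tested members were above 0 in both. The difference between them was tested as the interaction of ODN and IM156, which called 0 of 8 members and 0% of all tested genes by edgeR; 0 members, beside 12.3% of all tested genes, had an unadjusted p under 0.05, and DESeq2 called 0 members. The adjusted p of the 8 ran from 0.671 for S100a9 (-0.85, 95% interval -2.27 to 0.56) to 0.989 for S100a8 (-0.04, -1.51 to 1.43). The interval for S100a8 takes in both a smaller and a larger response under IM156, so the data do not show that the responses were equal.

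**Figure D4:**
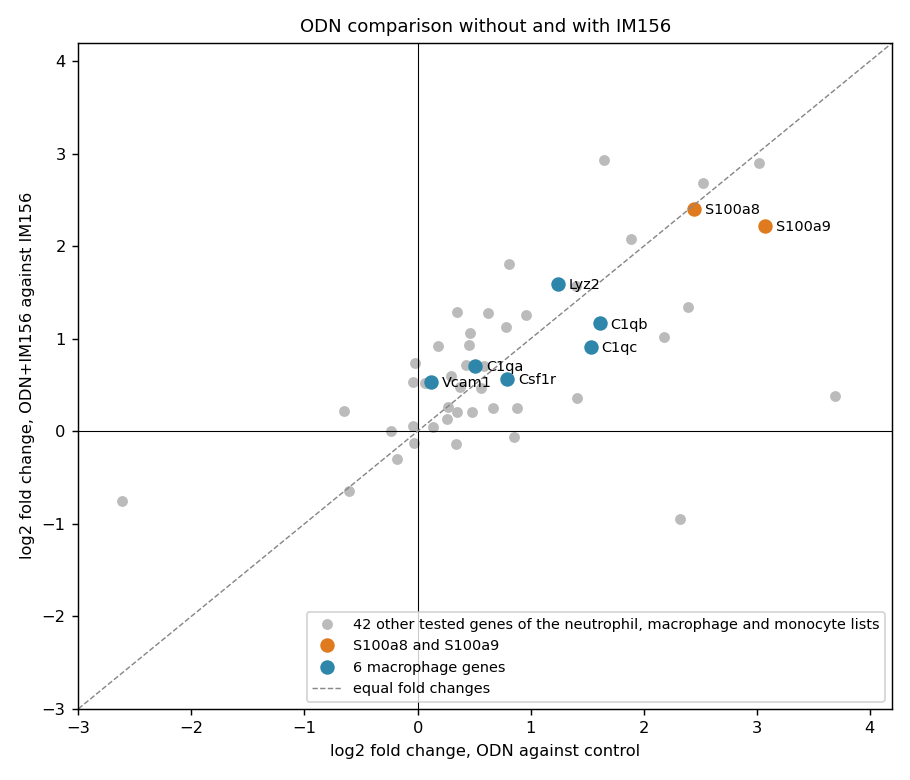
Log2 fold change in ODN+IM156 against IM156 (y axis) by that in ODN against control (x axis); orange points are S100a8 and S100a9, blue points the 6 macrophage genes, grey points 42 other tested genes of the neutrophil, macrophage and monocyte lists, and the dashed line marks equal values. All 8 members lie above 0 on both axes, with S100a8 at 2.45 and 2.41.

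**Figure D5:**
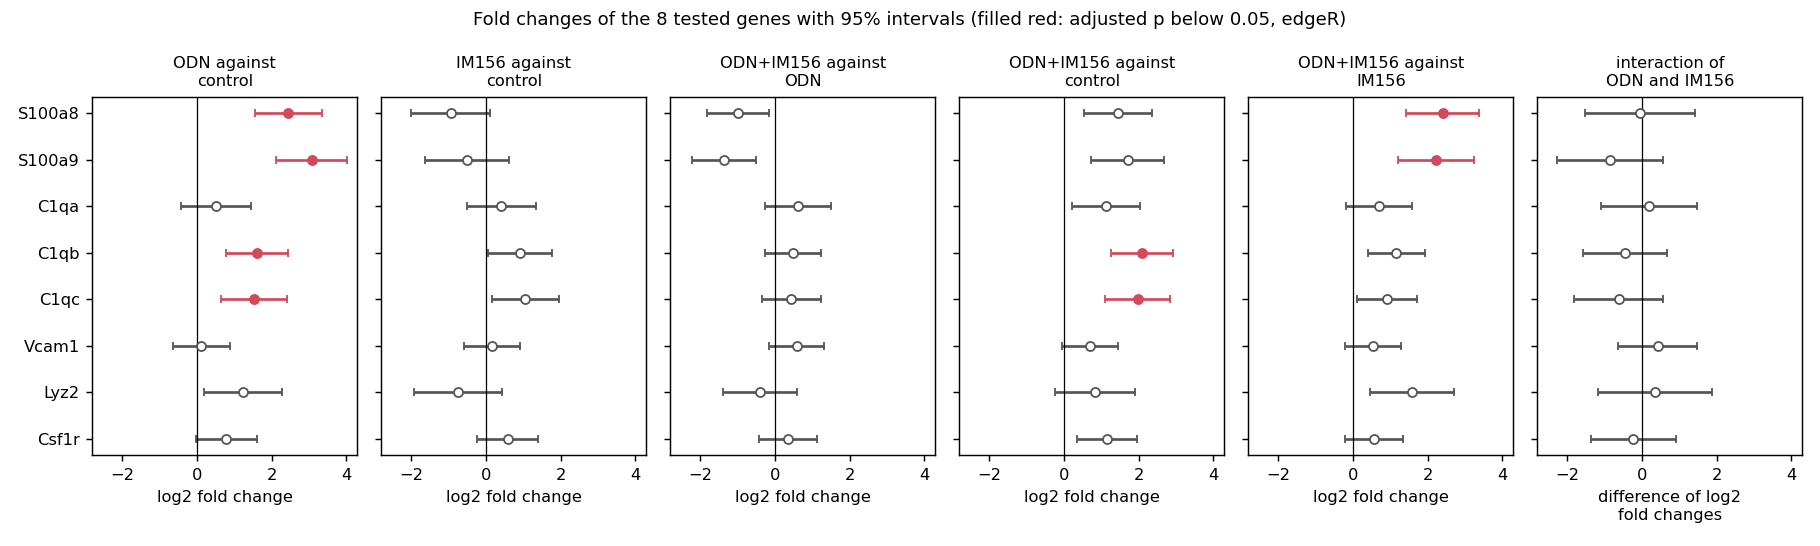
Log2 fold change of the 8 tested members (rows) with its 95% interval in the 5 comparisons and the interaction (panels, x axis in log2 units); red filled points have an edgeR adjusted p below 0.05. S100a8 and S100a9 are called in ODN against control and in ODN+IM156 against IM156, and C1qb and C1qc in ODN against control and in ODN+IM156 against control.

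Further genes of the same cells were read from lists, counted here without the members. The lists too were chosen with earlier results of these data known. Of 19 listed genes of mature neutrophils, 8 besides the members were tested, and in ODN against control 2 were higher and 1 lower, where 7.34% of all tested genes were higher and 3.25% lower. Il1b, which encodes the cytokine interleukin-1β, rose from 1.15 ± 0.846 to 6.08 ± 1.16 CPM (log2 2.39, edgeR adjusted p = 0.00140) and stayed called whichever library was left out, with a log2 fold change of 3.17 without control replicate 3. Wfdc21 rose from 9.19 ± 1.16 to 24.6 ± 20.1 CPM (adjusted p = 0.0270); ODN replicate 1 had 47.3 CPM, and without it the log2 fold change was 0.53 (adjusted p = 0.305). Trem1, an activating receptor of neutrophils and monocytes, fell from 1.59 ± 0.732 to 0.242 ± 0.168 CPM (adjusted p = 0.0358). Il1b reached the cut-off of the low-count filter in 1 control library and 3 ODN libraries, and Trem1 in 2 control libraries and 0 of ODN. The filter asks for 3 libraries, so neither gene would have passed on its control libraries alone. The calls of Wfdc21 and Trem1 also ended without control replicate 1 or control replicate 2, that of Wfdc21 without control replicate 3, and that of Trem1 without any one of the ODN libraries. In ODN+IM156 against control 1 of the 8, Il1b, was higher, a call that ended without control replicate 1 or 2 or ODN+IM156 replicate 2 or 3, and in the remaining 3 comparisons 0 of the 8 were called. Pglyrp1, the one secondary granule gene with enough reads (96 to 213 counts a library), differed by -0.24 on the log2 scale between ODN and control, without a call. The 7 untested secondary granule genes named above had 10 counts over the control libraries, 51 after ODN, 16 after IM156 and 30 after both. Retnlg, a secreted product of neutrophils, had 3.02, 0.601 and 0.957 CPM in ODN and 0.199, 0.998 and 0.194 CPM in control. In ODN replicate 1, where S100a8 and S100a9 were highest, Pglyrp1 had 96 counts, its lowest of the 12 libraries. Pglyrp1 made up 96.5% of the summed level of the secondary granule list in control and 86.8% in ODN. Which cells its reads came from was not tested.

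Of 30 listed macrophage genes, 19 besides the members were tested, and in ODN against control 2 were higher and 0 lower, a share near the 7.34% higher and 3.25% lower among all tested genes. Cd5l, a secreted protein of tissue macrophages, rose from 6.59 ± 1.48 to 12.8 ± 5.27 CPM (log2 0.96, edgeR adjusted p = 0.0308), and to 16.7 ± 2.41 CPM in ODN+IM156 (1.34 against control, adjusted p = 0.0113). Marco, a scavenger receptor, had 2, 1 and 4 counts in control and 74, 12 and 5 in ODN, a log2 change of 3.69 (adjusted p = 0.0150) that was 1.72 without ODN replicate 1 (adjusted p = 0.244). Marco had 77 counts over the IM156 libraries and 98 after both, beside 7 over the control and 91 over the ODN libraries. It was thus low in control alone and not high after ODN alone. Its control counts alone would not have passed the filter. In ODN+IM156 against IM156, 1 of the 19, Cd5l, was higher (1.25, adjusted p = 0.0163), and with IM156 as the only difference between the groups 0 of the 19 were called. In ODN against control, 0 of the 19 were called without control replicate 1, control replicate 2 or ODN replicate 1, 1 (Marco) without ODN replicate 2 and 4 without ODN replicate 3. In ODN+IM156 against control, where Marco and Cd5l were called, it was 0 of the 19 without control replicate 2, ODN+IM156 replicate 1 or ODN+IM156 replicate 3, and 1 (Cd5l) without any other library. The call of Cd5l in ODN+IM156 against IM156 ended without IM156 replicate 2 or 3 or ODN+IM156 replicate 1 or 3. The whole list, members included, summed to between 448 and 524 CPM in the control libraries, between 487 and 564 CPM after ODN, between 466 and 548 CPM after IM156 and between 507 and 564 CPM after both, ranges that overlap between control and ODN. Apoe, which other cells also express, made up 47.4% of that sum in control (226 CPM) and 38.6% in ODN (199 CPM), and the median log2 difference of the 19 was 0.29 in ODN against control.

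Of 18 listed monocyte genes, 14 besides the members were tested, and 7 were higher and 0 lower in ODN against control (7.34% higher among all tested genes), 5 higher in ODN+IM156 against control (1.25%), 6 higher in ODN+IM156 against IM156 (1.74%), and 0 called in the comparisons that differ by IM156 alone. Ly6c2, a surface antigen of inflammatory monocytes and of other leukocytes, rose from 11.3 ± 0.675 to 92.3 ± 51.1 CPM in ODN (log2 3.02, edgeR adjusted p = 1.2e-06). Fcer1g, the shared signalling chain of Fc receptors, rose from 5.80 ± 1.12 to 15.3 ± 4.90 CPM (1.40, adjusted p = 0.00152). Cybb, a subunit of the phagocyte oxidase that B cells also express, rose from 520 ± 62.2 to 766 ± 69.9 CPM (0.56, adjusted p = 0.00197). Mpeg1, which encodes the pore-forming protein perforin-2, rose from 25.1 ± 5.90 to 43.1 ± 4.54 CPM (0.78, adjusted p = 0.00270). With any one of the 6 libraries left out, 5 to 8 of the 14 were called in ODN against control. In ODN+IM156 against control the count fell to 3 without control replicate 2 or ODN+IM156 replicate 1, and in ODN+IM156 against IM156 to 3 without IM156 replicate 2 or 3. The list, members included, summed to 568 to 702 CPM in control and 929 to 1172 CPM in ODN, of which Cybb made up 81.8% and 75%. Cd14, one of the 7, had 7 counts over the control libraries and passed the filter only through other groups. It had 37 counts over the ODN libraries, 40 over those of IM156 and 20 after both. F13a1 and Fcgr4, also among the 7, reached the filter's cut-off in 1 control library each and in 3 ODN libraries each. Neither would have passed on its control libraries alone.

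Of 15 listed partners of the members (complement proteases and regulators, receptors of S100A8 and S100A9, ligands of CSF1R and integrins that bind VCAM1), 8 were tested. In ODN against control 1 was higher and 1 lower, beside 7.34% higher and 3.25% lower of all tested genes: Itgb1, the integrin β1 chain, by 0.34 (edgeR adjusted p = 0.0199), and Itga4, the α4 chain that pairs with it to bind VCAM1, by -0.28 (adjusted p = 0.0253). Csf1, a ligand of CSF1R, was 1.34 higher in ODN+IM156 than in IM156 (adjusted p = 0.0436; 1.74% of all tested genes were higher), and 0 of the 8 were called in the remaining 3 comparisons.

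Genes of other cells also differed between ODN and control, where 7.34% of all tested genes were called higher and 3.25% lower. Of 9 listed platelet genes, 8 were tested and 8 were higher, and their summed level was 30.3 to 46.9 CPM in control and 118 to 203 CPM in ODN. Of 4 tested NK-cell genes 2 were higher (summed 4.45 to 5.07 against 16.0 to 25.3 CPM), one of them Gzma with 4 counts over the control libraries and 232 over those of ODN. Of 8 tested erythroid genes 3 were lower (565 to 719 against 146 to 260 CPM). Of 5 tested genes of stromal and endothelial cells, which can also express Vcam1, 2 were higher (293 to 317 against 288 to 356 CPM, mostly Pecam1, 81.2% of the sum in control), one of them Kdr with 3 and 45 counts. Gzma and Kdr, like Cd14, passed the filter only through groups other than control. Gp5 reached the filter's cut-off in 1 control library, and Gp1bb and Il2rb in 2 each, so these genes also passed with the help of other groups. Of 11 dendritic genes 2 were higher (1962 to 2237 against 2412 to 2816 CPM, of which Ly6d, one of the 2, was 82.1% in control and 84.3% in ODN), and of 6 T-cell genes and 2 basophil, mast and eosinophil genes 0 were called. The part of these cells, and of the make-up of the preparation, in the differences of the 10 members was not tested.

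Genes whose pattern over the 12 libraries came nearest to a member were found as the smallest root mean square difference of centred log2 CPM among 11856 tested genes. For S100a9 the nearest was S100a8 (0.385, where the median gene had 1.46), followed by Shcbp1, Tcf19, Kif4, Rrm2 and Ska3 (0.514 to 0.588). Kif4 is a mitotic kinesin and Rrm2 a subunit of ribonucleotide reductase. Shcbp1 had means of 2.51 ± 0.758 CPM without treatment, 11.5 ± 6.04 CPM after ODN, 1.59 ± 0.480 CPM after IM156 and 5.32 ± 1.64 CPM after both, the same order of groups as S100a9. C1qb ranked 697 by likeness to S100a9. For C1qb the nearest genes were Fcer1g (0.339), Csf1r (0.389), Anpep (0.398), Cd5l (0.400), Ccnd1 (0.408) and Hebp1 (0.417), where the median gene had 0.927. Among the other members, C1qa ranked 8 by likeness to C1qb, C1qc 14, Vcam1 108 and Lyz2 3845, and S100a8 ranked 11336 of 11856. By this measure Csf1r, C1qa and C1qc were among the 14 genes nearest to C1qb, and Lyz2, at 0.890, lay near the median gene. The distance grows with the size of a gene's changes as well as with a different pattern. The SD of log2 CPM was 0.938 for C1qb, 1.404 for S100a8 and 1.499 for S100a9. The distance of 1.20 between C1qb and S100a9 ranked 697 from S100a9 and 11335 from C1qb. The ranks of the S100 genes therefore do not show whether their pattern was unlike that of C1qb. Distances between members were computed from S100a9 and C1qb only. These libraries share groups and depth, and likeness is a description only.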

How the data were processed

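RNA from splenic B cells was made into QuantSeq 3′ libraries, per the labels' protocols. The authors deposited whole-number read counts per gene, and the submitters' processing notes name Bowtie2, bedtools and edgeR with GRCm38 (mm10); versions, annotation and strand rule are not given in the sources used here. The 12 count columns were used, and 16 per-sample normalized or group-mean columns were not. Genes passing edgeR's filterByExpr (11857) were fitted in edgeR 4.0.16 (R 4.3.3), with TMM scaling, robust fitting off, 1 model over all 4 groups (8 residual degrees of freedom) and the quasi-likelihood test, adjusted by Benjamini-Hochberg over all tested genes at 0.05. SE is the log2 fold change divided by the square root of F, and intervals are 95%. The members and the 14 further lists were chosen with earlier results of these data known. Named genes are all members and up to 4 called genes of smallest adjusted p per list and comparison. The 6 genes nearest to S100a9 and to C1qb are also named. The granule genes, Retnlg, Siglec1, Pglyrp1, Cxcr2, Csf3r, Padi4, Clec4d, Il1r2, Stfa2l1, Ifitm6, Cd14, Fcgr4 and Gp5 were named after their values were seen. Total counts were 9650775 to 11532525, and the median tested gene had 258 counts in a library. Replicates differed beyond sampling noise, with a chi-square between 4.43 and 23.4 times its degrees of freedom. In a simulation of ODN against control on 11857 genes, 85% of 100 genes changed 2-fold and 100% of 100 changed 4-fold were recovered, with 13 false calls. The changed genes were drawn at random from all genes above a count limit. The 8 tested members had median counts of 16.5 to 153 in a library, so these shares need not hold for them. Alternatives included DESeq2 1.42.0 and leaving out each library. Leave-one-out fits of the neutrophil, macrophage and monocyte lists were chosen after seeing the data.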

Additional observations from a re-analysis of the deposited data

How the results depend on the processing

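DESeq2, library totals alone, relative log scaling and leaving Rn45s out kept the number of called members at 4 for ODN against control, 0 for IM156 against control, 0 for ODN+IM156 against ODN, 2 for ODN+IM156 against control, 2 for ODN+IM156 against IM156 and 0 for the interaction. With no filter on low counts the number became 2 for ODN+IM156 against ODN, 7 for ODN+IM156 against control and 5 for ODN+IM156 against IM156, while the genes called in all rose from 8 to 664, from 188 to 531 and from 293 to 652. Fitting only the groups compared gave 5 for each of ODN+IM156 against control (396 genes called in all) and ODN+IM156 against IM156 (892), and the robust fit gave 0 for ODN+IM156 against IM156 (247). The cause was not tested. Leaving out 1 library gave 2 to 5 for ODN against control, 0 to 1 for ODN+IM156 against ODN, 0 to 2 for ODN+IM156 against control and 0 to 2 for ODN+IM156 against IM156.

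Replicate numbers did not pair the libraries: 0 of 18 same-number pairs had a correlation of deviations over 0.1 (range -0.10 to 0.08). A replicate block left the numbers of called members at 4, 0, 0, 2, 2 and 0 in the order above.

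Of 712 alternative fold changes of the 8 tested members, 650 kept direction and call, 18 lost the call, 20 gained one and 24 changed sign; none of the 24 was a called fold. The sign of the S100a8 interaction changed with library totals alone (0.00793) and with the replicate block (0.0978). The other sign changes came from leaving out 1 library, over which Vcam1 ran from -0.147 to 0.576 in ODN against control and -0.140 to 0.625 in IM156 against control, C1qa from -0.0955 to 1.02 in IM156 against control, and the interaction from -0.357 to 0.825 for S100a8, -1.18 to 0.116 for S100a9, -0.404 to 0.714 for C1qa, -0.0399 to 0.732 for Vcam1, -0.135 to 0.622 for Lyz2 and -0.737 to 0.110 for Csf1r. Depth limits Lcn2 (23 counts in all) and Ngp (14 counts), which failed the filter.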
